A study of Mus musculus with 12 samples.

Results

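The comparison described here asks whether the BET inhibitor JQ1 acts on the transcriptome of mouse embryonic stem (ES) cells in 2iL as it does in serum/LIF. It is a difference of differences, the log2 change with JQ1 in 2iL minus the log2 change with JQ1 in serum/LIF, and below it is called the difference between media. It was read for every gene from the 8 libraries of unmodified cells among the 12 of the series, 2 libraries in each of 4 groups. The groups were JQ1 in 2iL, DMSO in 2iL, JQ1 in serum/LIF and DMSO in serum/LIF. JQ1 was given at 100 nM and cells were harvested after 60 h, and DMSO is its solvent. Both media held 1000 U/ml LIF. 2iL was a serum-free mix with N2 and B27 supplements that also held 1 µM of the MEK inhibitor PD0325901 and an inhibitor of GSK3, on plates coated with 0.2% gelatin. Serum/LIF held 15% fetal bovine serum, and those cells were kept on growth-arrested mouse embryonic fibroblasts and passed onto 0.2% gelatin before the experiment. Medium and feeder history therefore cannot be told apart. Of 52550 gene identifiers 16987 passed the low-count filter and were tested, and 9817 reached a mean of 5 CPM (counts scaled to library size) in at least 1 group of each medium. The labels do not say whether the 2 libraries of a group came from separate cultures, so p-values speak only of the spread between libraries and may hold technical variation alone.

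BET proteins bind acetylated histones through bromodomains and bring the elongation kinase P-TEFb to promoters and enhancers, and JQ1 occupies the bromodomain pocket. ES cells in 2iL hold a uniform naive state: MEK inhibition silences the ERK signal that drives them to differentiate, and GSK3 inhibition stabilises beta-catenin, which relieves repression of naive genes by the factor Tcf7l1. In serum/LIF the same genes, among them Nanog, Nr5a2 and Prdm14, are held by LIF and serum factors, and are expressed less evenly between cells.

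Totals of the 8 libraries ran from 17869865 to 48723436 expected counts, and the deepest library was replicate 1 of DMSO in serum/LIF. The share of counts from mitochondrially encoded genes was 4.67% and 4.82% with JQ1 in 2iL, 6.75% and 6.41% with DMSO in 2iL, 6.45% and 7.51% with JQ1 in serum/LIF, and 9.44% and 11.9% with DMSO in serum/LIF. The 5 ES cell markers Pou5f1, Sox2, Nanog, Sall4 and Zfp42 were present in every library. Of 9 fibroblast markers, between 4 and 6 were at 0 in each 2iL library and none in the serum/LIF libraries. Their summed level was 6.21 and 4.70 CPM with JQ1 and 12 and 7.92 CPM with DMSO in 2iL, against 313 and 318 CPM with JQ1 and 774 and 768 CPM with DMSO in serum/LIF. The summed level was thus lower with JQ1 than with DMSO in serum/LIF, and its part in the differences below was not tested. In bulk samples fewer cells of a type and less RNA per cell cannot be told apart.

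JQ1 changed many genes in each medium, and the difference between media passed the test for 706 of 16987 genes (4.16%). The difference was higher in 2iL for 230 genes (1.35%) and lower for 476 (2.80%), by edgeR's quasi-likelihood test at a Benjamini-Hochberg adjusted p under 0.05. Among the 9817 genes at 5 CPM in both media, 190 were higher (1.94%) and 285 lower (2.90%). Against DMSO, JQ1 raised 1896 genes (11.2%) and lowered 2938 (17.3%) in 2iL, and raised 1450 (8.54%) and lowered 2173 (12.8%) in serum/LIF. The count of 706 was 330 without JQ1 2iL replicate 2, 383 without JQ1 2iL replicate 1, 468 without DMSO serum/LIF replicate 2 and 431 in the fit of the 8 unmodified libraries alone. The 4834 genes called in 2iL were 2530, 2688 and 2926 without JQ1 2iL replicate 2, JQ1 2iL replicate 1 or DMSO 2iL replicate 1, and the 3623 called in serum/LIF were 1927, 2305 and 2393 without DMSO serum/LIF replicate 2, DMSO serum/LIF replicate 1 or JQ1 serum/LIF replicate 1. Among genes at 5 CPM in both media the count of 475 was 234 and 264 without JQ1 2iL replicate 2 or replicate 1. Across the 9817 genes the 2 responses had a Pearson correlation of 0.628, given as a description, since genes are not independent replicates and share libraries. Genes that responded alike in both media thus lie on the diagonal of the plot of both responses, and called genes to either side.

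**Figure D1:**
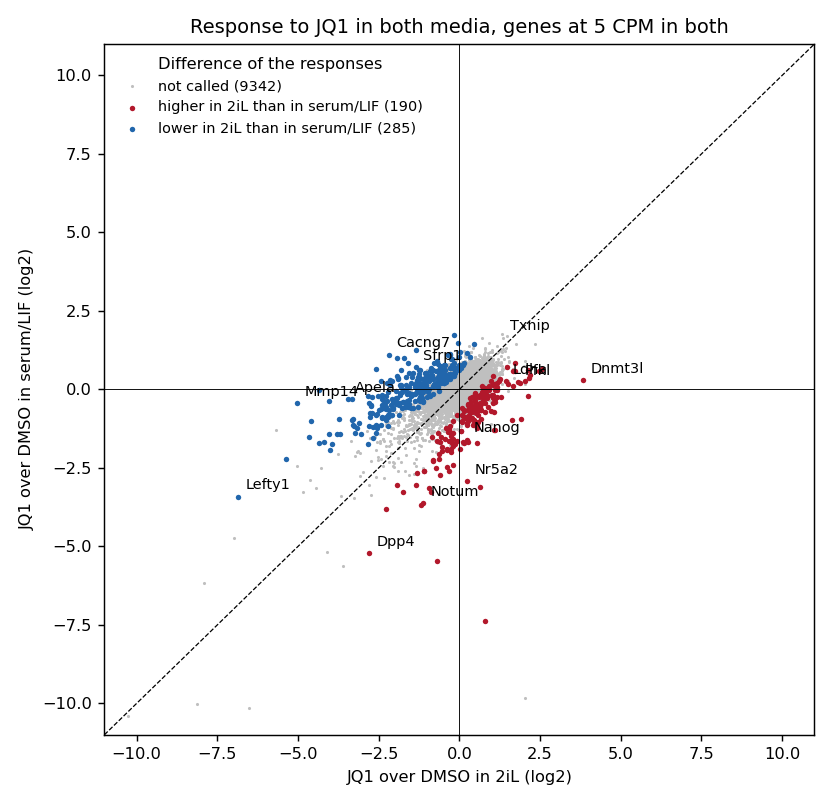
Log2 change with JQ1 over DMSO in 2iL (x axis) and in serum/LIF (y axis) for the 9817 genes at 5 CPM in both media, 1 point per gene, with the dashed line marking equal responses. The 190 genes called higher in 2iL (red) lie below the line and the 285 called lower (blue) above it, and Nr5a2 and Nanog fall mainly in serum/LIF whereas Mmp14 and Apela fall mainly in 2iL.

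The 706 genes split into several patterns. The most common was a fall in 2iL with no call in serum/LIF, seen in 305 genes, of which 155 were at 5 CPM in both media. The mirror pattern, a fall in serum/LIF with no call in 2iL, held for 95 genes, of which 72 were at 5 CPM in both media. A further 67 genes rose in 2iL and 48 rose in serum/LIF with no call in the other medium. Where both media were called in the same direction, 81 genes fell further in 2iL, 29 fell further in serum/LIF and 8 rose further in 2iL. Responses of opposite sign were called in both media for 72 genes, of which 30 rose in 2iL and fell in serum/LIF and 42 did the reverse. A gene not called in 1 medium is not shown to be unaffected there, and it is the test of the difference that sets the media apart.

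Most naive pluripotency factors fell with JQ1 in serum/LIF, and few of them fell in 2iL. The difference was called higher for 13 of 16 and lower for none, beside 1.35% and 2.80% of all genes tested. The list was drawn up with earlier results of these data known, so these shares describe it and give no independent support. The list median was 1.48 beside -0.05 over all genes tested. In 2iL 3 of the 16 rose and 2 fell, beside 11.2% and 17.3% of all genes tested, and the list's median log2 change was 0.31. In serum/LIF 1 rose and 13 fell, beside 8.54% and 12.8% of all genes tested, with a median of -1.02. In the fit of the 8 unmodified libraries alone the difference was called higher for 10 of the 16. The difference was called higher for 12 to 14 of the 16 under the other scalings and with DESeq2, and for 9 to 14 with 1 library left out, 9 of them without JQ1 2iL replicate 2.

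Nanog, the homeodomain factor that guards the naive state (chromosome 6, 122707489 to 122714633), stood at 908 and 969 CPM with JQ1 and 846 and 756 CPM with DMSO in 2iL. In serum/LIF it stood at 44.3 and 59.6 CPM with JQ1 and 140.1 and 174 CPM with DMSO. Both JQ1 libraries were thus above both DMSO libraries in 2iL and below them in serum/LIF. The log2 change was 0.23 ± 0.14 in 2iL and -1.60 ± 0.15 in serum/LIF, and the difference between media was 1.83 ± 0.20 (SE, adjusted p = 0.000654, edgeR). The nuclear receptor Nr5a2 (chromosome 1, 136842571 to 136960448), which sustains Pou5f1 expression, had 118 and 117 CPM with JQ1 and 92 and 108 CPM with DMSO in 2iL. In serum/LIF it had 4.43 and 4.60 CPM with JQ1 against 27.2 and 41.6 CPM with DMSO. Groups did not overlap in either medium, and only the serum/LIF change passed the test, with a difference between media of 3.15 ± 0.25 (adjusted p = 5.25e-05, edgeR). Prdm14, a repressor of differentiation genes, had 66.1 and 74.7 CPM with JQ1 and 72.2 and 66.8 CPM with DMSO in 2iL, so the groups overlapped there. In serum/LIF it was near the limit of detection, with 3 and 5 counts in the JQ1 libraries against 108 and 92 counts in the DMSO libraries, and the size of its difference (4.11, adjusted p = 0.00355, edgeR) is uncertain. The other 15 members of the list reached 5 CPM in both media.

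Nr0b1, an orphan receptor that partners with Pou5f1, had 99.8 and 81.0 CPM with JQ1 and 121 and 105 CPM with DMSO in 2iL, against 2.39 and 5.18 CPM with JQ1 and 17.7 and 28.0 CPM with DMSO in serum/LIF. Its difference between media was 2.27 ± 0.38 (adjusted p = 0.00489, edgeR). The Krüppel-like factors Klf2 and Klf4 had differences of 1.43 ± 0.24 and 1.26 ± 0.20, and fell in serum/LIF by 0.98 and 0.96 on the log2 scale. Fgf4, the ligand that feeds the ERK pathway, had a difference of 1.52 ± 0.26. Tbx3 and Tfcp2l1, transcription factors downstream of LIF, had differences of 1.12 ± 0.17 and 1.35 ± 0.23. Tbx3 rose in 2iL, at 358 and 309 CPM with JQ1 against 224 and 197 CPM with DMSO, and Tfcp2l1 stood at 1115 and 1041 CPM with JQ1 against 601 and 746 CPM with DMSO. The rise of Tfcp2l1 lost its call without DMSO 2iL replicate 1 (0.54, adjusted p = 0.0714) or JQ1 2iL replicate 1 (0.64, adjusted p = 0.0521). The log2 change in serum/LIF was -0.46 for Tbx3 and -0.67 for Tfcp2l1, and both lost their call without DMSO serum/LIF replicate 2 (-0.44 for Tbx3 and -0.37 for Tfcp2l1) or JQ1 serum/LIF replicate 2 (-0.32 and -0.62), and Tbx3 also without DMSO serum/LIF replicate 1 (-0.47).

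Other naive members were called less stably. In the fit of the 8 unmodified libraries alone Esrrb (1.25), Zfp42 (1.29) and Tcl1 (1.69) lost their call. Tcl1 also lost it with library totals only (1.60), with 1 CPM in 4 libraries as the filter (1.71) and without mitochondrially encoded genes (1.71). Esrrb, an orphan nuclear receptor that GSK3 inhibition is known to induce, had 862 and 899 CPM with JQ1 and 593 and 632 CPM with DMSO in 2iL, against 47.4 and 72.4 CPM with JQ1 and 75 and 126 CPM with DMSO in serum/LIF. Its difference of 1.27 ± 0.30 (adjusted p = 0.0297, edgeR) lost its call without DMSO serum/LIF replicate 2 (0.85), JQ1 serum/LIF replicate 1 (0.99), DMSO 2iL replicate 1 (1.22), JQ1 2iL replicate 1 (1.31) or JQ1 2iL replicate 2 (1.24). Zfp42, also known as Rex1, had a difference of 1.32 ± 0.31 that lost its call in 6 of 8 fits without 1 library, in all but those without DMSO serum/LIF replicate 1 or JQ1 serum/LIF replicate 2, with values from 0.98 to 1.42. Tcl1, which helps activate the kinase Akt, fell in both media, and its difference of 1.71 ± 0.44 (adjusted p = 0.0498, edgeR) lost its call without any 1 of 5 libraries, namely both DMSO 2iL replicates, JQ1 2iL replicate 2, JQ1 serum/LIF replicate 1 and DMSO serum/LIF replicate 2, with values from 1.177 to 1.71. Fbxo15, an F-box protein, had a difference of 1.78 ± 0.34, and of 1.57 (adjusted p = 0.0554) without JQ1 2iL replicate 2. The 3 members not called were Klf5 (0.38 ± 0.17), Gbx2 (-0.32 ± 0.32) and Dppa3 (1.87 ± 0.53, adjusted p = 0.0717, edgeR). Dppa3, a maternal factor that guards DNA methylation, rose in 2iL, with 14.1 and 17.9 CPM with JQ1 against 3.08 and 4.79 CPM with DMSO. In serum/LIF its groups overlapped, at 11.7 and 21.6 CPM with JQ1 and 10.9 and 19.3 CPM with DMSO.

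**Figure D2:**
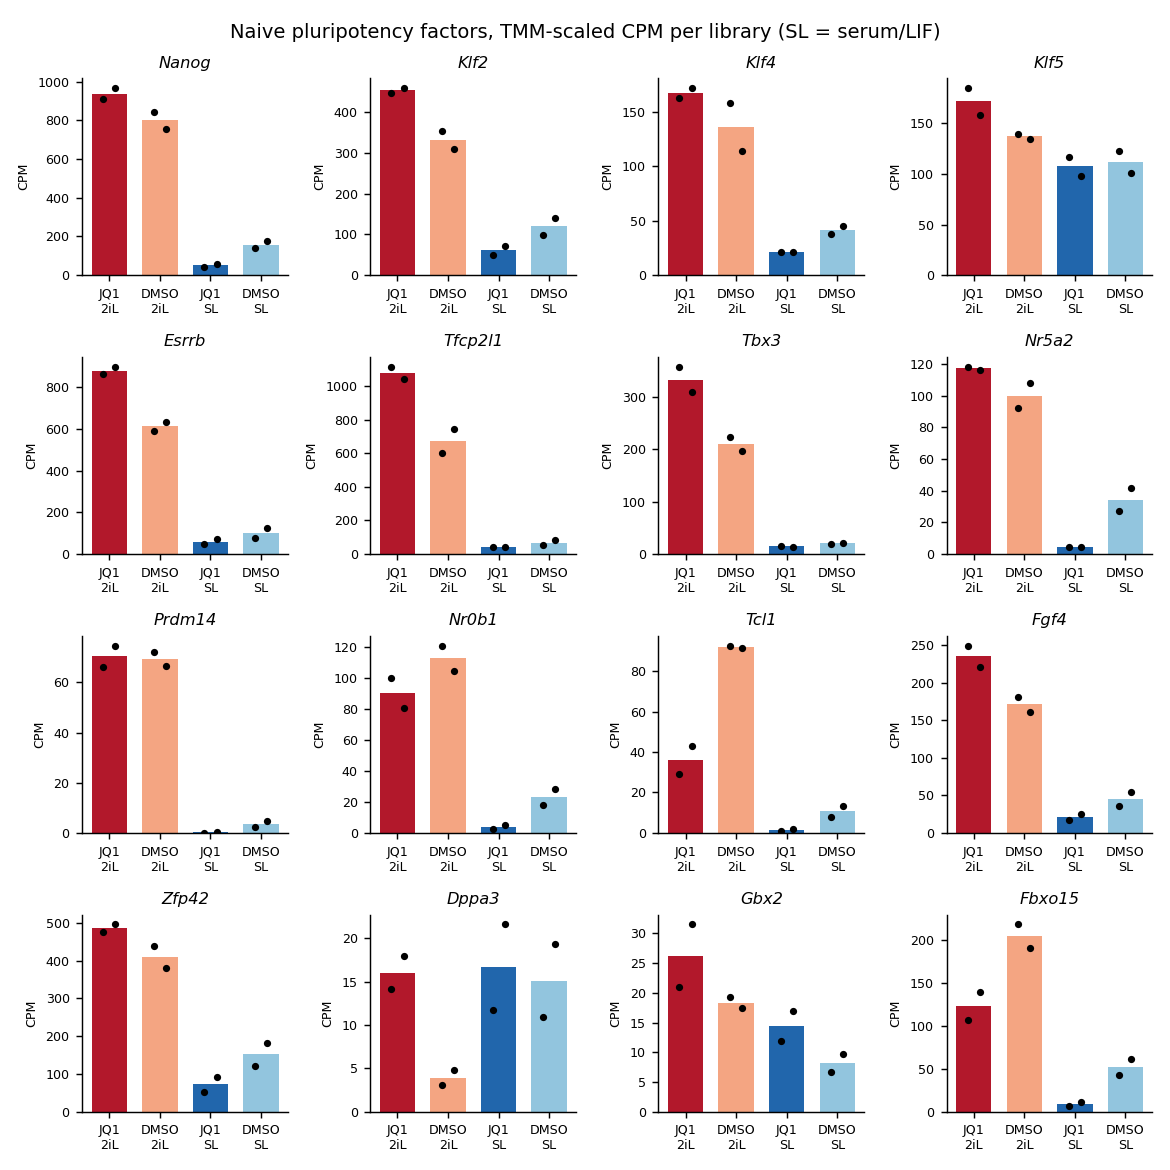
TMM-scaled CPM of the 16 naive factors in each of the 8 libraries, with bars for the mean of 2 libraries and dots for the libraries, and SL for serum/LIF. In serum/LIF the JQ1 bar of Nanog (44.3 and 59.6 CPM) lies below the DMSO bar (140.1 and 174 CPM), whereas in 2iL both bars are tall and close.

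The promoters of Nanog and Nr5a2 are printed because they carry the clearest differences of the list. They are RefSeq windows of build GRCm38.p6, from 250 bases before to 50 after the annotated start, chr6:122707239-122707538 on the plus strand and chr1:136960399-136960698 on the minus strand, written 5′ to 3′.
Nanog promoter: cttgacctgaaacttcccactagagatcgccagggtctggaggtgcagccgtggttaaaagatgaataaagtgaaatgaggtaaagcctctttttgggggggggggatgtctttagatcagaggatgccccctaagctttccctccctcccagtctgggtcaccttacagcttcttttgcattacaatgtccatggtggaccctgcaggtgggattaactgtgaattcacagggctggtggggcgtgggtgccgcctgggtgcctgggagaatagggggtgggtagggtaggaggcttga
Nr5a2 promoter: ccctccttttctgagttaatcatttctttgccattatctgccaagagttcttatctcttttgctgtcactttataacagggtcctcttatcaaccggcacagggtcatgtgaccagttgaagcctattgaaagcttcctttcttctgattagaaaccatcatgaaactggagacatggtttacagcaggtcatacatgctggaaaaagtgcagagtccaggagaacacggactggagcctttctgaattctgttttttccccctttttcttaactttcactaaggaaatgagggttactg
Both windows were searched on both strands for CTTTGAA and CTTTGAT, which Tcf/Lef factors bind, for AAGGTCA, the half-site of Esrrb and Nr5a2 type receptors, and for ACGTG, the core of hypoxia-factor sites. Neither window holds any of them, so no base is capitalised. Of the 16 naive genes 11 had a window in the table, and 0 of these held a Tcf/Lef match, beside 5.98% of 11747 windows of tested genes. For AAGGTCA the counts were 0 of 11 and 3.22%. A window without a match says only that these letters are not in it.

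Of 9 general pluripotency factors none was called in the difference by edgeR, 0 passed at an unadjusted p under 0.05 and 0 were called by DESeq2. Among all 16987 genes tested 2937 passed at that unadjusted p and DESeq2 called 990. The list median was 0.05. Pou5f1, the central POU factor, had 844 and 802 CPM with JQ1 and 959 and 762 CPM with DMSO in 2iL. In serum/LIF it had 417 and 652 CPM with JQ1 and 544 and 581.6 CPM with DMSO. The groups overlapped in both media, and the difference was 0.01 ± 0.25, with a 95% interval from -0.52 to 0.54. Sox2, its partner factor, had a difference of 0.26 ± 0.32, and Sall4, a zinc-finger repressor, of 0.05 ± 0.13 with an interval from -0.23 to 0.34. Among 14 formative and primed genes, 10 of them at 5 CPM in both media, 1 was called higher and 2 lower, beside 1.35% and 2.80% of all genes tested. The adhesion protein Cdh2 rose in 2iL, with 17.6 and 20.6 CPM with JQ1 against 4.36 and 5.02 CPM with DMSO. In serum/LIF it had 147 and 97.9 CPM with JQ1 and 109 and 96.3 CPM with DMSO, and its difference was 1.78 ± 0.27 (adjusted p = 0.00311, edgeR). The neural and progenitor factor Sox4 fell in 2iL, with 3.47 and 5.09 CPM with JQ1 against 17.0 and 10.5 CPM with DMSO, and its difference was -2.05 ± 0.29 (adjusted p = 0.00223, edgeR).

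Genes of glycolysis, the pathway that breaks glucose down to pyruvate and lactate, rose with JQ1 in 2iL and mostly did not pass the test in serum/LIF. In 2iL 14 of 19 rose and none fell, with a median log2 change of 0.70. In serum/LIF 3 rose and none fell, with a median of 0.16. Among all genes tested 11.2% rose and 17.3% fell in 2iL, and 8.54% rose and 12.8% fell in serum/LIF. The difference was called higher for 8 of 19 and lower for none, beside 1.35% and 2.80% of all genes tested, with a median of 0.60. This list too was drawn up with earlier results of these data known, so the shares only describe it. Unadjusted p fell under 0.05 for 13 higher and 1 lower, and DESeq2 called 10 higher. Among all 16987 genes tested it fell under 0.05 for 2937 in either direction, and DESeq2 called 409 higher and 581 lower. The count of 8 ran from 6 to 9 with 1 library left out and was 5 in the fit of the 8 unmodified libraries alone.

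Pfkl, the liver-type phosphofructokinase that commits sugar to the pathway (chromosome 10, 77986947 to 78010083), had 247 and 222 CPM with JQ1 and 67.8 and 66.3 CPM with DMSO in 2iL. In serum/LIF it had 271 and 308 CPM with JQ1 and 254 and 239 CPM with DMSO. The JQ1 libraries in 2iL thus overlapped the DMSO libraries in serum/LIF, and the DMSO libraries in 2iL lay far below. Its log2 change was 1.81 ± 0.10 in 2iL and 0.23 ± 0.10 in serum/LIF, and the difference was 1.58 ± 0.14 (adjusted p = 0.000114, edgeR). Ldha, the lactate dehydrogenase subunit (chromosome 7, 46841475 to 46855627), had 1004 and 927 CPM with JQ1 and 377 and 336 CPM with DMSO in 2iL. Its serum/LIF levels were 1243 and 1527 CPM with JQ1 and 1186 and 1138 CPM with DMSO, and its difference was 1.184 ± 0.17 (adjusted p = 0.00248, edgeR). Both 2iL groups were well apart, and the 2iL JQ1 libraries stayed below all 4 serum/LIF libraries.

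The glucose transporter Slc2a1 had 382 and 368 CPM with JQ1 against 165 and 185 CPM with DMSO in 2iL, and its difference was 1.40 ± 0.25. Serum/LIF cells held more of it, with 1374 and 845 CPM with JQ1 and 1481 and 1237 CPM with DMSO. Pfkp, the platelet-type phosphofructokinase, and Pgk1, phosphoglycerate kinase, had differences of 1.47 ± 0.26 and 0.94 ± 0.15. The remaining 3 called members were less stable. All 3 lost their call in the fit of the 8 unmodified libraries alone, at 1.49 for Pdk1, 0.58 for Eno1 and 0.61 for Pkm. Eno1 also lost it with library totals only (0.50). Pdk1, the kinase that keeps pyruvate out of mitochondria, had a difference of 1.51 ± 0.33 that lost its call without DMSO 2iL replicate 1 (1.28), DMSO serum/LIF replicate 2 (1.21) or JQ1 2iL replicate 2 (1.34). The enolase Eno1 (0.60 ± 0.14) lost its call without DMSO 2iL replicate 1 (0.57), DMSO serum/LIF replicate 1 (0.54), JQ1 2iL replicate 1 (0.58) or JQ1 2iL replicate 2 (0.63), and the pyruvate kinase Pkm (0.63 ± 0.14) without DMSO serum/LIF replicate 1 (0.58) or JQ1 2iL replicate 1 (0.56). Gapdh rose by 0.67 ± 0.10 in 2iL, and its difference of 0.32 ± 0.15 was not called.

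**Figure D3:**
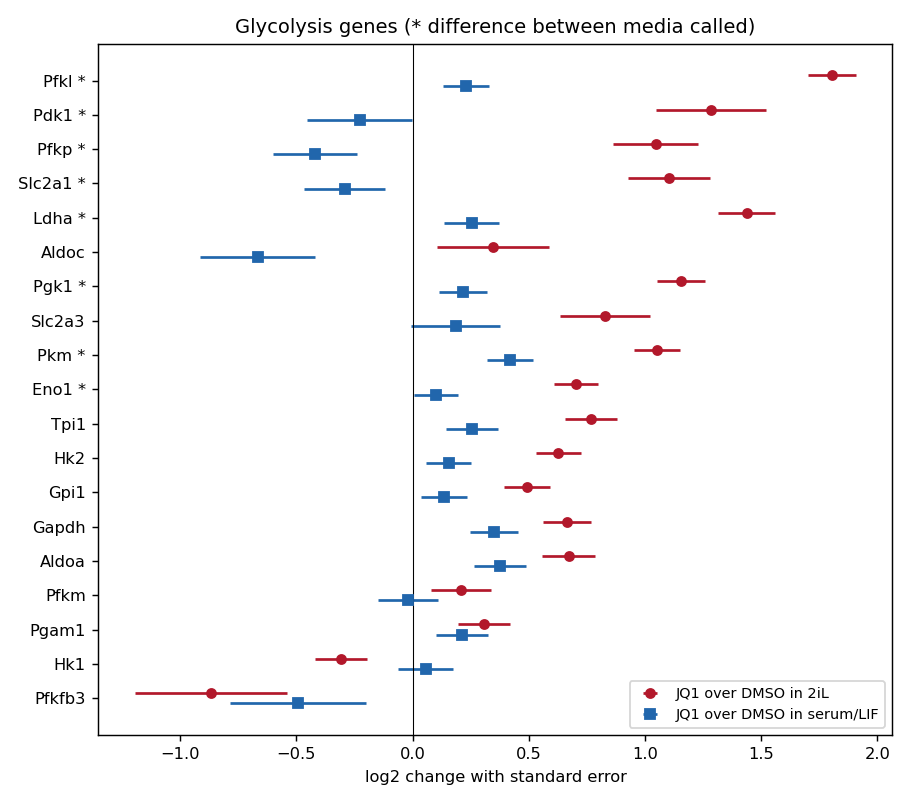
Log2 change with JQ1 over DMSO of 19 glycolysis genes in 2iL (red circles) and in serum/LIF (blue squares), with bars for the standard error of the fit and a star where the difference between media was called. The circle of Pfkl stands at 1.81 and its square at 0.23, and 8 genes carry a star.

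The promoters of Ldha, Pgk1 and Pfkl are printed as those of called members with and without matches to ACGTG, which is shown in capitals on either strand. They are RefSeq windows of build GRCm38.p6, chr7:46845554-46845853 on the plus strand, chrX:106186850-106187149 on the plus strand and chr10:78009758-78010057 on the minus strand.
Ldha promoter: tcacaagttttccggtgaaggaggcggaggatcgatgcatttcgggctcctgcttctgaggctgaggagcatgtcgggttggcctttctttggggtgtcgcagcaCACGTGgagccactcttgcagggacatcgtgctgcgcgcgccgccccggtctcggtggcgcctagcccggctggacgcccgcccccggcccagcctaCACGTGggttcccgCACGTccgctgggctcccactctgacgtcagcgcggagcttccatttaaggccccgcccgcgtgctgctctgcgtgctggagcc
Pgk1 promoter: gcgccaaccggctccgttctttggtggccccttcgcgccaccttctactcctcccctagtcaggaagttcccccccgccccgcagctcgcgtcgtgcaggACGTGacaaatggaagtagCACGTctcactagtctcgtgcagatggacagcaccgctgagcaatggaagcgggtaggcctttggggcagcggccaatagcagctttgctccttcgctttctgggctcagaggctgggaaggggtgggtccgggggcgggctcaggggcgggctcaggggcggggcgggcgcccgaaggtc
Pfkl promoter: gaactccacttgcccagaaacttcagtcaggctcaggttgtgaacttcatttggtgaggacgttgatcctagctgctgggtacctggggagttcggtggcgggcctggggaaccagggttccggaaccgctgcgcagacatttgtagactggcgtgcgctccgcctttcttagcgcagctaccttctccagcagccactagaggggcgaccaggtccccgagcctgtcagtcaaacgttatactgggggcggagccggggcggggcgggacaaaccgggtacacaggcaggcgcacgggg
The capitals stand in 3 runs in Ldha, of which the CACGTG runs hold a match on each strand, in 2 runs in Pgk1 and in 0 in Pfkl. Over the list 9 of 18 windows held ACGTG (50%), beside 24.9% of the 11747 windows of tested genes. Among the called members it was 3 of 8 (37.5%). A match is a description of these letters and not a site. Of 16 hypoxia response genes, which hypoxia-inducible factors drive through such sequences, 3 were called higher and 1 lower. The shares of all genes tested were 1.35% and 2.80%. Ndrg1, a stress-response gene, had 11.2 and 13.2 CPM with JQ1 and 11.1 and 12.3 CPM with DMSO in 2iL, against 3.65 and 3.87 CPM with JQ1 and 9.70 and 9.21 CPM with DMSO in serum/LIF. It fell in serum/LIF and its groups overlapped in 2iL, and the difference was 1.40 ± 0.25 (adjusted p = 0.00734, edgeR).

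**Figure D4:**
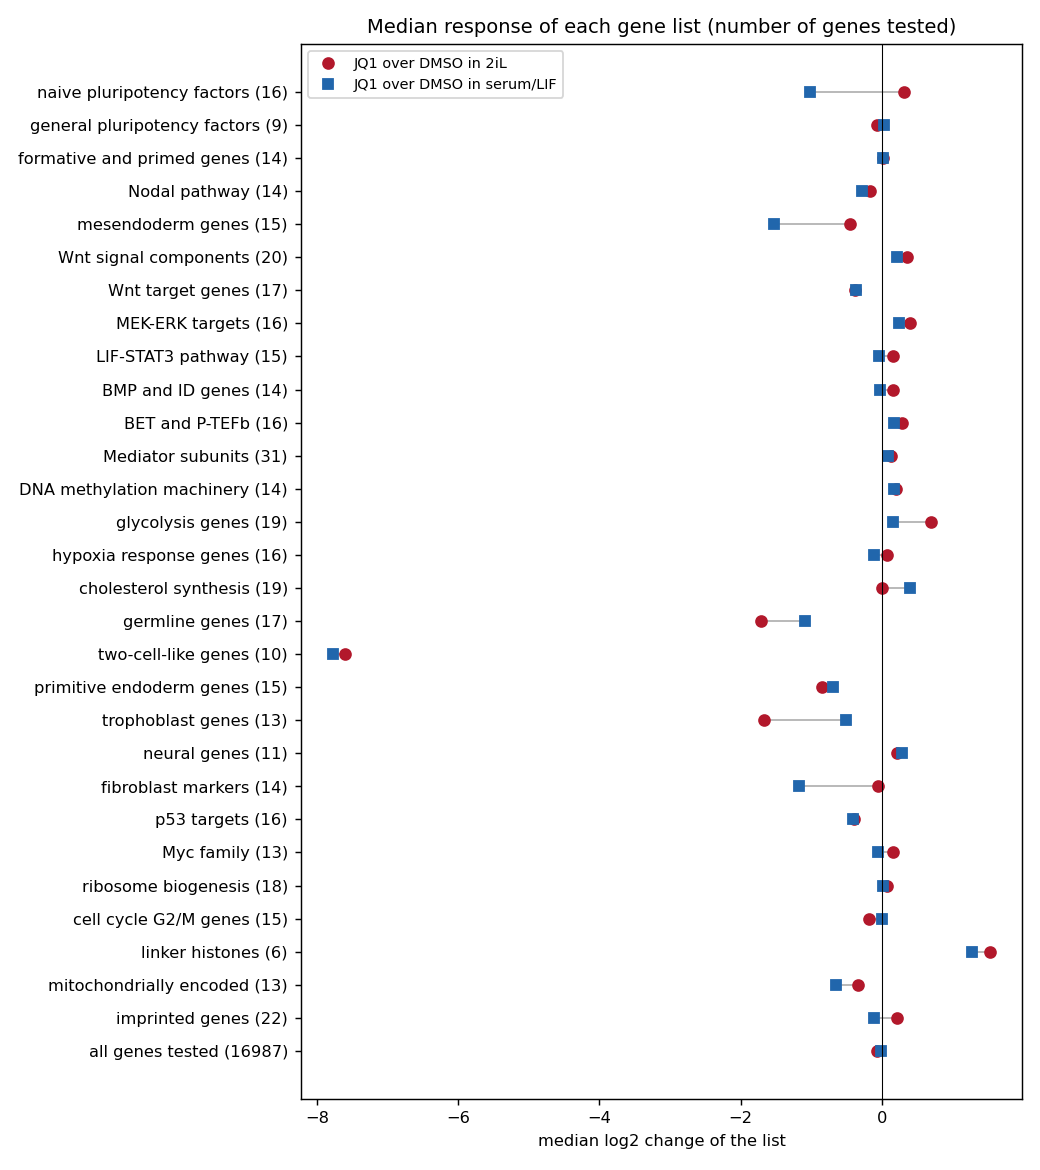
Median log2 change with JQ1 over DMSO in 2iL (red circles) and in serum/LIF (blue squares) for each gene list, with the number of genes tested, and for all 16987 genes at the bottom. In 2iL the median was above that in serum/LIF for naive factors (0.31 and -1.02), fibroblast markers (-0.05 and -1.17), mesendoderm genes (-0.45 and -1.52) and glycolysis genes (0.70 and 0.16), and below it for trophoblast genes (-1.67 and -0.50) and germline genes (-1.71 and -1.08). Members at 5 CPM in both media were 3 of 14 fibroblast markers, 2 of 15 mesendoderm, 5 of 13 trophoblast and 6 of 17 germline genes. The medians of these lists thus rest largely on genes under 5 CPM in at least 1 medium, and their gaps are uncertain.

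Of 14 genes of Nodal signalling, which primes ES cells for mesendoderm, 5 fell in 2iL and 6 fell in serum/LIF. Among all genes tested 17.3% fell in 2iL and 12.8% in serum/LIF. The difference was called higher for 2 of 14 and lower for 1, beside 1.35% and 2.80% of all genes tested. The ligand Nodal had 76.1 and 56.4 CPM with JQ1 and 127 and 105 CPM with DMSO in 2iL, against 42.5 and 33.5 CPM with JQ1 and 187 and 181 CPM with DMSO in serum/LIF. It was lower with JQ1 in both media without overlap and its difference was 1.46 ± 0.23 (adjusted p = 0.00376, edgeR). The 2iL change of -0.81 lost its call without JQ1 2iL replicate 2 (-0.60, adjusted p = 0.0531). The proprotein convertase Pcsk6, which matures Nodal, had a difference of 1.08 ± 0.19. Lefty1, the secreted Nodal antagonist, went the other way, with 0.171 and 0.431 CPM with JQ1 against 19.7 and 54.6 CPM with DMSO in 2iL. The serum/LIF libraries had 12 and 13.4 CPM with JQ1 against 105 and 167 CPM with DMSO. The difference was -3.43 (adjusted p = 0.0314, edgeR), of uncertain size since JQ1 libraries in 2iL were at a few counts. It lost its call without DMSO serum/LIF replicate 1 (-3.13), JQ1 2iL replicate 1 (-2.99), JQ1 2iL replicate 2 (-4.31) or JQ1 serum/LIF replicate 2 (-3.35). In the fit of the 8 unmodified libraries alone Lefty1 lost its call as well (-3.45). Its paralog Lefty2, which may share reads with it, fell in both media with a difference of -2.24 that was not called. Foxh1, the DNA-binding partner of Nodal's Smad effectors, fell by 0.89 ± 0.14 in 2iL and by 0.98 ± 0.13 in serum/LIF, with a difference of 0.09 ± 0.19. Of 15 mesendoderm genes 1 fell in 2iL and 9 fell in serum/LIF, and the median difference was 1.14. Among all 16987 genes tested 2937 differences had an unadjusted p under 0.05 in either direction. At an unadjusted p under 0.05 there were 4 higher and 1 lower, and edgeR called 1 higher, the T-box factor Eomes, with 20.3 and 13.9 CPM with JQ1 and 14.0 and 9.03 CPM with DMSO in 2iL, against 12.3 and 12.8 CPM with JQ1 and 42.5 and 39.7 CPM with DMSO in serum/LIF. Its difference was 2.27 ± 0.28 (adjusted p = 0.00148, edgeR), and 2 members of the list reached 5 CPM in both media.

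Wnt signalling is switched on by GSK3 inhibition, and of 20 of its components none was called in the difference by edgeR. At an unadjusted p under 0.05 there were 2 higher and 2 lower, and DESeq2 called 1 higher and 1 lower. Among all 16987 genes tested 2937 passed at that unadjusted p in either direction, and DESeq2 called 409 higher and 581 lower. In 2iL 7 of the 20 rose and 3 fell, beside 11.2% and 17.3% of all genes tested. In serum/LIF 7 rose and 1 fell, beside 8.54% and 12.8%. Ctnnb1, the gene of beta-catenin, had 940 and 897 CPM with JQ1 and 673 and 643 CPM with DMSO in 2iL, against 789 and 772 CPM with JQ1 and 568 and 521 CPM with DMSO in serum/LIF. The groups did not overlap in either medium, and its difference was -0.04 ± 0.13, with a 95% interval from -0.32 to 0.24. Gsk3a and Gsk3b, the kinases inhibited in 2iL, had differences of 0.12 ± 0.18 and 0.24 ± 0.18, and Tcf7l1, the repressor of naive genes, of -0.06 ± 0.20. Among 17 Wnt target genes 1 was called higher and 2 lower in the difference, beside 1.35% and 2.80% of all genes tested. Only 8 of the 17 reached 5 CPM in both media. Notum, a secreted enzyme that inactivates Wnt ligands, had 30.5 and 31.7 CPM with JQ1 and 63.2 and 71.4 CPM with DMSO in 2iL, against 2.91 and 1.98 CPM with JQ1 and 24.1 and 37.6 CPM with DMSO in serum/LIF. It fell in both media and its difference was 2.52 ± 0.33 (adjusted p = 0.0016, edgeR). Sfrp1, a secreted Wnt antagonist, had 47.8 and 36.5 CPM with JQ1 and 103 and 111 CPM with DMSO in 2iL, against 21.2 and 23.4 CPM with JQ1 and 11.6 and 16.1 CPM with DMSO in serum/LIF. Its groups were apart in opposite directions in the 2 media, with a difference of -2.05 ± 0.25 (adjusted p = 0.0014, edgeR), and its rise in serum/LIF lost its call without DMSO serum/LIF replicate 1 (0.47, adjusted p = 0.144) or JQ1 serum/LIF replicate 2 (0.65, adjusted p = 0.0586). Axin2, the standard feedback target of the pathway, had a difference of 0.51 ± 0.37 that was not called, with overlapping groups in serum/LIF.

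DNA methylation is low in 2iL, and its machinery held 3 called members of 14, all higher, beside 1.35% called higher among all genes tested. Dnmt3l, the cofactor of the de novo methyltransferases, had 14.5 and 6.86 CPM with JQ1 against 1.06 and 0.415 CPM with DMSO in 2iL. Its serum/LIF levels were 179 and 233 CPM with JQ1 and 165 and 174 CPM with DMSO. It rose in 2iL, where all libraries lay far below those in serum/LIF, and its difference was 3.54 ± 0.48 (adjusted p = 0.00191, edgeR). The methyltransferase Dnmt3b rose in both media, by 1.08 ± 0.13 in 2iL and 0.77 ± 0.13 in serum/LIF, with a difference of 0.31 ± 0.18 that was not called. Zfp57, a zinc-finger protein that guards imprints, had 429 and 379 CPM with JQ1 and 356 and 334 CPM with DMSO in 2iL, against 74.7 and 78.9 CPM with JQ1 and 139.8 and 147 CPM with DMSO in serum/LIF. Its difference was 1.13 ± 0.14 (adjusted p = 0.00147, edgeR). Tet1, a dioxygenase that oxidises methylcytosine, had a difference of 1.38 ± 0.31 that lost its call without DMSO 2iL replicate 1 (1.07), DMSO serum/LIF replicate 2 (1.05), JQ1 2iL replicate 1 (1.37), JQ1 2iL replicate 2 (1.39) or JQ1 serum/LIF replicate 2 (1.24). In the fit of the 8 unmodified libraries alone Tet1 lost its call as well (1.36). Its relative Tet2 narrowly missed the threshold, at 1.25 ± 0.33 (adjusted p = 0.0507, edgeR).

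Signalling genes gave mixed differences. In the LIF-STAT3 list 3 of 15 were called higher, of which Klf4 and Tfcp2l1 also belong to the naive list, and 2 lower. Among all genes tested 1.35% were called higher and 2.80% lower. The kinase Pim3, a STAT3 target, rose in serum/LIF, with 169.6 and 181 CPM with JQ1 against 123 and 97.6 CPM with DMSO, and had a difference of -0.95 ± 0.17 (adjusted p = 0.00685, edgeR). The receptor Lifr and Stat3 itself were not called, at 0.67 ± 0.22 and 0.28 ± 0.15. Of 14 BMP and ID genes, 9 of them at 5 CPM in both media, Bmp4 was higher and Dusp9 lower. Bmp4, a ligand that induces ID genes, had 10.4 and 12.6 CPM with JQ1 against 2.71 and 2.53 CPM with DMSO in 2iL, and 54.0 and 45.5 CPM with JQ1 and 63.6 and 51.2 CPM with DMSO in serum/LIF, with a difference of 2.35 ± 0.22 (adjusted p = 0.000191, edgeR). Dusp9, an ERK phosphatase downstream of BMP, fell in 2iL, with 24.2 and 25 CPM with JQ1 against 130.5 and 83.8 CPM with DMSO, and had a difference of -1.61 ± 0.28 (adjusted p = 0.00625, edgeR). In the MEK-ERK target list 1 of 16 was called higher and none lower. Only 8 of the 16 reached 5 CPM in both media, and a gene near 0 in 2iL can hardly show a response there. Dusp6, the usual feedback target of ERK, had a difference of -0.99 ± 0.37 that was not called. Myc had 4.95 and 4.57 CPM with JQ1 and 6.33 and 6.82 CPM with DMSO in 2iL, against 95 and 96.6 CPM with JQ1 and 84.2 and 67.5 CPM with DMSO in serum/LIF, and its difference of -0.80 ± 0.23 missed the threshold (adjusted p = 0.0689, edgeR).

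Genes of the BET and P-TEFb list rose or were not called in each medium. Of 16, 7 rose in 2iL and 3 in serum/LIF, beside 11.2% and 8.54% of all genes tested. Of 16 BET and P-TEFb genes none was called in the difference by edgeR, 3 higher and 1 lower passed at an unadjusted p under 0.05, and DESeq2 called 1 higher. Among all 16987 genes tested 2937 passed at that unadjusted p in either direction, and DESeq2 called 409 higher and 581 lower. Brd2, a BET protein, had 528 and 550 CPM with JQ1 and 259 and 279 CPM with DMSO in 2iL, against 553 and 488 CPM with JQ1 and 290 and 259 CPM with DMSO in serum/LIF. It rose by 1.00 ± 0.10 in 2iL and by 0.92 ± 0.10 in serum/LIF, and the difference was 0.08 ± 0.14, with a 95% interval from -0.23 to 0.38. Hexim1, the inhibitor of P-TEFb, had a difference of -0.03 ± 0.14, and Aff4, a scaffold of the super elongation complex, of 0.65 ± 0.22 (adjusted p = 0.126, edgeR). Of 31 Mediator subunits none was called by edgeR, 1 higher passed at an unadjusted p under 0.05 and DESeq2 called 1 higher, and differences ran from -0.37 to 0.68. Of 9 linker histones 6 were tested and 3 reached 5 CPM in both media. Of the 6, 4 rose in 2iL and 3 in serum/LIF, beside 11.2% and 8.54% of all genes tested. In the difference 1 was called higher, beside 1.35%. This was Hist1h1c, with 15.4 and 16.2 CPM with JQ1 against 3.17 and 2.21 CPM with DMSO in 2iL, and a difference of 1.89 ± 0.30 (adjusted p = 0.00374, edgeR). Its serum/LIF rise of 0.66 lost its call in the fit of the 8 unmodified libraries alone (0.67). The same held without DMSO serum/LIF replicate 2 (0.52), JQ1 serum/LIF replicate 1 (0.58) or JQ1 serum/LIF replicate 2 (0.76). Enzymes of cholesterol synthesis leaned the other way. In serum/LIF 10 of 19 rose, against 2 that rose and 1 that fell in 2iL, and the median difference was -0.37. Of these differences 2 were called, both lower, 9 passed at an unadjusted p under 0.05, all lower, and DESeq2 called 3. Among all 16987 genes tested edgeR called 2.80% lower, 2937 passed at that unadjusted p in either direction, and DESeq2 called 581 lower. The isomerase Idi1 had a difference of -0.65 (adjusted p = 0.0135, edgeR), which lost its call without DMSO serum/LIF replicate 2 (-0.61) or JQ1 2iL replicate 1 (-0.60), and the sterol oxidase Msmo1 one of -0.80 (adjusted p = 0.0101, edgeR), which lost it without JQ1 2iL replicate 2 (-0.76).

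In each list for other states and cell types 0 to 2 differences were called, beside 1.35% called higher and 2.80% called lower among all genes tested. The 10 two-cell-like genes of the Zscan4, Usp17l and related families, whose near-identical copies may share reads, fell in 2iL (10 of 10) and in serum/LIF (9 of 10). None was called in the difference by edgeR or DESeq2, or at an unadjusted p under 0.05. Only 3 of the 10 reached 5 CPM in both media, and Zscan4a, Zscan4b, Zscan4e and Gm4340 were at 0 with JQ1 in both. With JQ1 at 0 on both sides the difference cannot be estimated, so no conclusion is drawn from the lack of calls. Zscan4a was at 0 in all 4 JQ1 libraries, which is at least 45.0-fold lower in 2iL and at least 33.6-fold lower in serum/LIF against a floor of 3 counts per library. Of 17 germline genes 12 fell in 2iL and 6 in serum/LIF, beside 17.3% and 12.8% of all genes tested. Of the 17, 2 were called lower in the difference and 6 reached 5 CPM in both media. Ddx4, a germ cell helicase, had 3.64 and 4.49 CPM with JQ1 against 10.1 and 10.4 CPM with DMSO in 2iL, and 12.9 and 14.8 CPM with JQ1 and 12.6 and 13.2 CPM with DMSO in serum/LIF, with a difference of -1.43 ± 0.24 (adjusted p = 0.00482, edgeR). Called higher and lower were 1 and 1 of 11 neural genes, 1 and 0 of 15 primitive endoderm genes, 1 and 0 of 13 trophoblast genes, 1 and 0 of 16 p53 targets, 0 and 1 of 13 Myc family genes, 0 and 1 of 15 genes of the G2/M phase and 1 and 0 of 22 imprinted genes. At 5 CPM in both media were 3 of the 11 neural, 3 of the 15 primitive endoderm, 5 of the 13 trophoblast and 13 of the 22 imprinted genes. Genes near 0 in a medium can hardly show a response there. Tubb3, the neuronal tubulin, fell in 2iL, with 17.7 and 13.8 CPM with JQ1 against 44.1 and 35.7 CPM with DMSO, and its difference was -1.56 ± 0.24 (adjusted p = 0.00364, edgeR). Of 18 ribosome biogenesis genes and of 13 mitochondrially encoded genes edgeR called none. At an unadjusted p under 0.05 there were 1 and 2, all higher, and DESeq2 called 0 and 1. Among all 16987 genes tested 2937 passed at that unadjusted p in either direction, and DESeq2 called 990. Of 14 fibroblast markers only 3 reached 5 CPM in both media. Of the 14, 10 fell in serum/LIF and 3 in 2iL, and 1 was called higher and 1 lower, with a median difference of 1.10. The higher one was fibronectin, Fn1, which ES cells also express, with 4430 and 3666 CPM with JQ1 against 1676 and 2156 CPM with DMSO in 2iL. The serum/LIF libraries had 2038 and 1322 CPM with JQ1 against 2878 and 2665 CPM with DMSO, so its groups were apart in opposite directions, and its difference was 1.80 ± 0.26 (adjusted p = 0.00248, edgeR). Its serum/LIF change of -0.72 lost its call without DMSO serum/LIF replicate 1 (-0.66) or JQ1 serum/LIF replicate 2 (-0.42).

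The 10 lowest differences among genes at 5 CPM in both media were those of Mmp14, Sorcs2, Cap2, Des, Lefty1, Cacng7, Heg1, Apela, Serpinf1 and Tgfbi, from -4.60 to -3.14. Mmp14, a membrane-bound protease of the extracellular matrix (chromosome 14, 54431612 to 54445364), had 0.513 and 0.302 CPM with JQ1 against 12.7 and 13.4 CPM with DMSO in 2iL. Its serum/LIF levels were 100.2 and 76.8 CPM with JQ1 and 126 and 112 CPM with DMSO. With JQ1 in 2iL it was near the floor of 3 counts, the serum/LIF change of -0.43 ± 0.15 was not called, and the difference was -4.60 ± 0.33 (adjusted p = 2.68e-05, edgeR). Apela, a peptide ligand of the apelin receptor (chromosome 8, 65028417 to 65037336), had 4.56 and 4.61 CPM with JQ1 against 50.4 and 51.0 CPM with DMSO in 2iL. The serum/LIF libraries had 32.6 and 35.5 CPM with JQ1 and 43.8 and 40.4 CPM with DMSO, and its difference of -3.16 ± 0.16 had the smallest adjusted p among the genes named here (1.02e-06, edgeR). For both genes the JQ1 and DMSO groups were far apart in 2iL, and in serum/LIF all JQ1 libraries lay below the DMSO libraries by a small margin.

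Sorcs2, a sorting receptor, had 0.285 and 0.259 CPM with JQ1 against 3.35 and 7.83 CPM with DMSO in 2iL, and 7.39 and 5.62 CPM with JQ1 against 6.86 and 6.14 CPM with DMSO in serum/LIF. Cap2, an actin-binding protein, had 0.285 and 0.474 CPM with JQ1 against 7.07 and 5.80 CPM with DMSO in 2iL, with a serum/LIF change of -0.37 ± 0.30. The muscle filament gene Des had 0.456 and 0.259 CPM with JQ1 against 9.59 and 7.42 CPM with DMSO in 2iL. All 3 were near the floor with JQ1 in 2iL, so their differences of -4.34, -3.66 and -3.60 are uncertain in size. Serpinf1, a secreted serpin, and Tgfbi, a matrix protein, fell in both media and further in 2iL, with differences of -3.15 ± 0.48 and -3.14 ± 0.52. With JQ1 in 2iL Serpinf1 had 4 and 4 counts and Tgfbi 10 and 6 counts, so these sizes are uncertain too. The transmembrane protein Heg1 had 2.45 and 1.81 CPM with JQ1 against 14.7 and 10.7 CPM with DMSO in 2iL, and a difference of -3.25 ± 0.44.

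**Figure D5:**
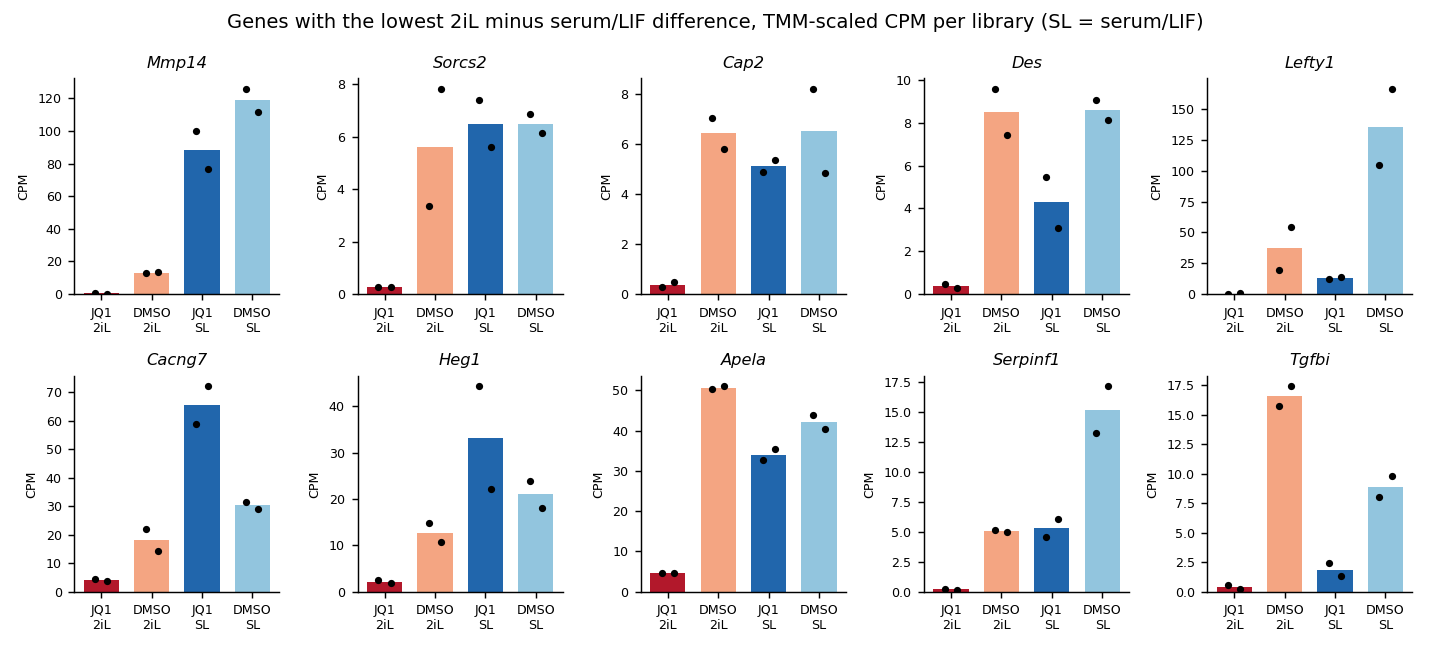
TMM-scaled CPM per library of the 10 genes with the lowest difference between media, with bars for the mean of 2 libraries, dots for the libraries and SL for serum/LIF. In 2iL each JQ1 bar is below its DMSO bar, as for Apela with 4.56 and 4.61 CPM against 50.4 and 51.0 CPM, while in serum/LIF Cacng7 stands higher with JQ1.

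The 10 highest differences among genes at 5 CPM in both media were those of Gm13841, Ceacam1, Trh, Dnmt3l, Nr5a2, Sh3pxd2a, Chd3, Notum, Myh13 and Dpp4, from 8.17 to 2.43. The first, Gm13841, a processed pseudogene, rests on 1 library. It had 22.4 CPM in DMSO serum/LIF replicate 1 but 0.102 CPM in replicate 2, against 0.130 and 0 CPM with JQ1, and without replicate 1 of DMSO its difference was 1.34 (adjusted p = 0.856, edgeR). The call was also lost without any 1 of the other libraries except DMSO serum/LIF replicate 2, at values from 7.30 to 12. In the fit of the 8 unmodified libraries alone it was lost too (8.12). The adhesion molecule Ceacam1 had 9.57 and 13.0 CPM with JQ1 and 16.9 and 19.8 CPM with DMSO in 2iL, against 0.130 and 0.194 CPM with JQ1 and 4.64 and 10.4 CPM with DMSO in serum/LIF, where JQ1 brought it to the floor. Its difference was 4.76 (adjusted p = 0.0018, edgeR). Trh, the precursor of thyrotropin-releasing hormone, fell in serum/LIF, with 45.6 and 62.7 CPM with JQ1 against 356 and 576 CPM with DMSO. In 2iL its groups overlapped, at 6.66 and 15.0 CPM with JQ1 and 3.99 and 10.3 CPM with DMSO, and its difference was 3.73 ± 0.57 (adjusted p = 0.00313, edgeR).

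Some of the highest genes rose in 2iL. Chd3, a chromatin remodeller of the NuRD complex, had 58.9 and 69.2 CPM with JQ1 against 19.6 and 22.1 CPM with DMSO in 2iL, and 20.7 and 18.3 CPM with JQ1 against 41.0 and 35.4 CPM with DMSO in serum/LIF. Its groups were apart in opposite directions, with a difference of 2.60 ± 0.25 (adjusted p = 0.000192, edgeR). Sh3pxd2a, a podosome scaffold, had 64.2 and 82.2 CPM with JQ1 against 14.5 and 24.4 CPM with DMSO in 2iL and a difference of 2.84 ± 0.39. Its fall in serum/LIF (-0.93 ± 0.27) lost its call without DMSO serum/LIF replicate 1 (-0.68) or JQ1 serum/LIF replicate 2 (-0.54). Dpp4, a surface peptidase, and Myh13, a muscle myosin, fell in both media and further in serum/LIF. Dpp4 had 14.0 and 13.4 CPM with JQ1 against 102 and 87.7 CPM with DMSO in 2iL, and 0.348 and 0.242 CPM with JQ1 against 9.49 and 13.4 CPM with DMSO in serum/LIF, with differences of 2.43 for Dpp4 and 2.48 for Myh13. With JQ1 in serum/LIF Dpp4 had 8 and 5 counts and Myh13 15 and 6 counts, so both sizes are uncertain.

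Of the 72 genes with opposite calls, those with the largest smaller change were Zfp935, Myrip, Rcan2, Nat8l, Cadm4, Hoxa7, Adam23, Cacng7, Ttbk1 and Kifc3. Cacng7, a gamma subunit of neuronal membrane channels, had 4.39 and 3.67 CPM with JQ1 against 21.9 and 14.3 CPM with DMSO in 2iL, and 59.0 and 72.0 CPM with JQ1 against 31.6 and 29.1 CPM with DMSO in serum/LIF. It fell by 2.18 ± 0.20 in 2iL and rose by 1.11 ± 0.17 in serum/LIF, and its difference was -3.29 ± 0.27 (adjusted p = 5.81e-05, edgeR). Cadm4, an adhesion protein of the nervous system, had 14.8 and 12.9 CPM with JQ1 against 34.8 and 36.1 CPM with DMSO in 2iL, and 7.78 and 8.18 CPM with JQ1 against 3.04 and 3.79 CPM with DMSO in serum/LIF, with a difference of -2.61 ± 0.26. The motor protein gene Kifc3 did the reverse, with 7.63 and 8.11 CPM with JQ1 against 4.04 and 3.41 CPM with DMSO in 2iL, 19.3 and 12.4 CPM with JQ1 against 42.9 and 34.0 CPM with DMSO in serum/LIF, and a difference of 2.36 ± 0.29.

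The others of these 10 were less firm. Zfp935 rests on few libraries: in 2iL it had 54 counts in JQ1 replicate 2 and 0 in the other 3 libraries, and in serum/LIF 61 and 18 counts with DMSO and 0 with JQ1. Its difference lost its call in 7 of 8 fits without 1 library, the exception being JQ1 2iL replicate 1. Neither DESeq2 nor the fit of the 8 unmodified libraries alone called it. Without JQ1 2iL replicate 2 it had no counts in 2iL, and the adjusted p was 1. Myrip had 1 count in each JQ1 library in 2iL and at most 18 counts in any of the 8 libraries, and its difference of -5.47 lost its call with DESeq2 and without 5 libraries, at values from -5.63 to -4.55. Rcan2, with 1 count in each JQ1 library in 2iL, lost its call without JQ1 2iL replicate 2 (-4.66, adjusted p = 0.0592), as did Hoxa7 (-2.61, adjusted p = 0.056) and Adam23 (2.37, adjusted p = 0.0516). The opposite calls of these 4 genes were also lost in single media. The 2iL rise of Adam23 (1.11) was not called with DESeq2, in the fit of the 8 unmodified libraries, or without JQ1 2iL replicate 1 (1.15), JQ1 2iL replicate 2 (1.09) or DMSO 2iL replicate 1 (0.56), and its serum/LIF fall (-1.29) was not called without JQ1 serum/LIF replicate 1 (-1.21) or DMSO serum/LIF replicate 2 (-0.83). The serum/LIF rise of Hoxa7 (1.15) lost its call in the fit of the 8 unmodified libraries and without any 1 of the 4 serum/LIF libraries, at values from 1.05 to 1.31. Its 2iL fall (-1.59) lost it without JQ1 2iL replicate 2 (-1.45) or DMSO 2iL replicate 1 (-0.89). Rcan2 lost its 2iL call (-3.52) without JQ1 2iL replicate 2 (-3.32), and its serum/LIF call (1.32) with DESeq2 (1.31) or without JQ1 serum/LIF replicate 1 (0.90), DMSO serum/LIF replicate 1 (1.69) or DMSO serum/LIF replicate 2 (1.09). Myrip lost its 2iL call (-3.23) with DESeq2 or without either JQ1 2iL library or DMSO 2iL replicate 1, at values from -3.38 to -2.77, and its serum/LIF call (2.24) with DESeq2, RLE scaling, the replicate block and without any 1 of the 8 libraries, at values from 1.34 to 3.18. Nat8l, the enzyme that makes N-acetylaspartate, and the tau tubulin kinase Ttbk1 kept a called difference in every alternative, at -2.86 and -4.12, but were under 5 CPM in 2iL. In single media the calls of Nat8l were lost without DMSO 2iL replicate 1 (-1.38), JQ1 2iL replicate 1 (-0.99) or DMSO serum/LIF replicate 1 (1.10), and that of Ttbk1 in serum/LIF without DMSO serum/LIF replicate 1 (0.97) or JQ1 serum/LIF replicate 2 (0.95).

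Further genes reached 5 CPM in 1 medium only, 58 called genes in 2iL and 105 in serum/LIF, and 68 called genes reached it in neither. The highest of the first 2 kinds were Gad1, Cyp26a1, Prdm14, Pkia and Aire, and among the lowest were Cdh13, Gm47939, Hal and Plekha6. Gad1, which makes the transmitter GABA, had 1 and 2 counts with JQ1 against 291 and 170 counts with DMSO in serum/LIF, and 5 and 9 counts with JQ1 against 20 and 32 counts with DMSO in 2iL. Cyp26a1, which degrades retinoic acid, fell by 2.79 ± 0.27 on the log2 scale in serum/LIF and had 8 and 2 counts with JQ1 against 2 and 1 counts with DMSO in 2iL. Its difference of 4.56 thus holds a 2iL change of 1.77 fitted on those few counts, and it lost its call without JQ1 2iL replicate 1 (3.09, adjusted p = 0.327). Pkia, an inhibitor of protein kinase A, rose in 2iL, with 1.65 and 1.55 CPM with JQ1 against 0.230 and 0.369 CPM with DMSO. Aire, a transcriptional regulator best known from the thymus, fell in serum/LIF, with 3.39 and 4.07 CPM with JQ1 against 12.2 and 18.3 CPM with DMSO.

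Among the lowest, Cdh13 and Gm47939 had 0 counts in both JQ1 libraries in 2iL. Against the floor Cdh13, a cadherin without a cytoplasmic domain, was at least 4.44-fold lower than with DMSO and Gm47939 at least 5.67-fold lower. Cdh13 lost its call without DMSO 2iL replicate 1 (-6.19), JQ1 2iL replicate 1 (-6.48) or JQ1 2iL replicate 2 (-6.45), and Gm47939 without JQ1 2iL replicate 2 (-6.34). Plekha6, a pleckstrin-homology protein, had 0.114 and 0.173 CPM with JQ1 against 6.43 and 7.74 CPM with DMSO in 2iL, and 2.52 and 2.47 CPM with JQ1 against 2.20 and 2.56 CPM with DMSO in serum/LIF, where the groups overlapped. Hal, the histidase, had 3 and 7 counts with JQ1 against 262 and 114 counts with DMSO in 2iL and at most 9 counts in any serum/LIF library. Differences of all 4 are of uncertain size for that reason.

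A response of at least 1 on the log2 scale in the same direction in both media, with the 95% interval of the difference within 1 of 0, held for 68 genes that fell and 13 that rose. The 5 with the deepest fall, Gm33027, Lipc, Igfals, Itgal and Gm3765, had at most 2.15 CPM in every serum/LIF library, where the interval is not reliable. Among genes at 5 CPM in both media, a restriction chosen after the values were seen, 49 fell and 13 rose, and the deepest falls were those of Morc1, Mmrn2, Adgrg1, Ephx2 and Ak1. Morc1, a germline silencer of transposons, had 16.4 and 17.1 CPM with JQ1 against 90.3 and 111 CPM with DMSO in 2iL, and 3.35 and 5.03 CPM with JQ1 against 24.6 and 33.3 CPM with DMSO in serum/LIF. It fell by 2.58 ± 0.19 in 2iL and by 2.79 ± 0.21 in serum/LIF, and the difference was 0.20 ± 0.27. The strongest rises were those of the linker histones H1fx and H1f0, Txnip, Sesn3 and Garem1. Txnip, an inhibitor of thioredoxin and of glucose uptake, had 490.2 and 630 CPM with JQ1 against 211 and 227 CPM with DMSO in 2iL, and 215 and 208 CPM with JQ1 against 65.8 and 69.2 CPM with DMSO in serum/LIF. It rose by 1.35 ± 0.12 in 2iL and by 1.65 ± 0.12 in serum/LIF. H1f0, the replacement linker histone, rose by 1.32 ± 0.17 in 2iL and by 1.77 ± 0.17 in serum/LIF, with a difference of -0.45 ± 0.23 that was not called.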

How the data were processed

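Messenger RNA of 12 libraries was sequenced. The authors deposited unscaled expected counts for each gene, and only these were used. Per the submitters' processing notes the tools were bcl2fastq, STAR 2.5.2, RSEM and DESeq2 1.18.1 with build mm10. Annotation release, strand setting and filters are not given in the sources used here, so reads of antisense partners and near-identical copies may be shared between genes. Of 52550 identifiers 52403 (99.72%) matched GENCODE M 21 (GRCm 38) names without their version. These counts, rounded to whole numbers, went into edgeR 4.0.16 under R 4.3.3, with filterByExpr (minimum count 10, minimum total 15) and TMM scaling. All 6 groups, the 4 GSK3 knockout libraries included, shared 1 quasi-likelihood model, which gave each gene 1 spread with 6 residual degrees of freedom. The groups were not equally variable. Chi-square per gene between the libraries of a group was 34.4 with JQ1 and 28.6 with DMSO in serum/LIF, and 7.47 and 21.8 in 2iL. In the knockout it was 8.53 and 8.82. The shared spread may thus be too small for the serum/LIF groups, which was not tested. The contrast was (JQ1 minus DMSO in 2iL) minus (JQ1 minus DMSO in serum/LIF), two-sided, and p-values were adjusted over all 16987 genes by Benjamini-Hochberg. SE is the size of the log2 value over the square root of F, intervals are 95%, and neither is reliable for genes near 0 counts. CPM are TMM-scaled. A floor of 3 counts per library was 0.0611 to 0.171 CPM, and counting limits cover counting error only.

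Named genes were, among called genes at 5 CPM in both media, the 10 highest and 10 lowest differences. Added were the 10 with opposite calls ranked by the smaller change, the 5 highest and 5 lowest at 5 CPM in 1 medium only, the 5 strongest shared falls and rises, and examples from 29 gene lists. A few genes that these choices name are not reported here. The members and lists were chosen with earlier results of these data known, and lists got counts and medians but no test. Alternatives were DESeq2 1.42.0, RLE scaling, library totals only, no low-count filter, 1 CPM in 4 libraries, the 8 unmodified libraries, the replicate number as a block, no mitochondrially encoded genes, unrounded counts, a log2 minimum of 1, and each of the 8 libraries left out. With 1 library left out its group holds 1 library, assumed to vary like the others.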

Additional observations from a re-analysis of the deposited data

Results flagged for a closer look

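The 706 genes whose JQ1 response differed between 2iL and serum/LIF stand out by the test of the difference itself, and each value below is a log2 change with JQ1 in 2iL minus that in serum/LIF of a gene that passed it. Among naive pluripotency factors the difference was 1.83 for Nanog, 1.43 for Klf2, 1.26 for Klf4, 1.27 for Esrrb, 1.35 for Tfcp2l1, 1.12 for Tbx3, 3.15 for Nr5a2, 4.11 for Prdm14, 2.27 for Nr0b1, 1.71 for Tcl1, 1.52 for Fgf4, 1.32 for Zfp42 and 1.78 for Fbxo15. Among glycolysis genes it was 1.40 for Slc2a1, 1.58 for Pfkl, 1.47 for Pfkp, 0.94 for Pgk1, 0.60 for Eno1, 0.63 for Pkm, 1.184 for Ldha and 1.51 for Pdk1. In signalling pathways and their targets it was 1.46 for Nodal, 1.08 for Pcsk6, -3.43 for Lefty1, 2.27 for Eomes, 2.52 for Notum, -2.05 for Sfrp1, -0.95 for Pim3, 2.35 for Bmp4 and -1.61 for Dusp9. Of other genes called higher it was 4.76 for Ceacam1, 3.73 for Trh, 3.54 for Dnmt3l, 2.84 for Sh3pxd2a, 2.60 for Chd3, 2.48 for Myh13, 2.43 for Dpp4, 2.40 for Adam23, 2.36 for Kifc3, 1.89 for Hist1h1c, 1.80 for Fn1, 1.78 for Cdh2, 1.40 for Ndrg1, 1.38 for Tet1 and 1.13 for Zfp57. Higher genes under 5 CPM in at least 1 medium, or resting on 1 library, had 15.54 for Zfp935, 8.17 for Gm13841, 4.82 for Gad1, 4.56 for Cyp26a1, 2.91 for Pkia and 2.88 for Aire. Other genes called lower had -0.65 for Idi1, -0.80 for Msmo1, -1.43 for Ddx4, -1.56 for Tubb3, -2.05 for Sox4, -2.61 for Cadm4, -3.14 for Tgfbi, -3.15 for Serpinf1, -3.16 for Apela, -3.25 for Heg1, -3.29 for Cacng7, -3.60 for Des, -3.66 for Cap2, -4.34 for Sorcs2 and -4.60 for Mmp14. Lower genes under 5 CPM in at least 1 medium had -4.85 for Rcan2, -5.47 for Myrip, -5.62 for Plekha6, -6.07 for Hal, -6.36 for Gm47939, -6.47 for Cdh13, -4.12 for Ttbk1, -2.86 for Nat8l and -2.74 for Hoxa7. With groups of 2 libraries no library could be set apart from its group.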

How the results depend on the processing

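The 706 differences between media were 990 with DESeq2, 702 with RLE scaling, 851 with library totals only and 920 with the replicate block, of which 683, 670, 670 and 703 were among the 706. Without the low-count filter there were 1478, and 915 at 5 CPM in both media, and in the fit of the 8 unmodified libraries 431 and 295; the causes were not tested. Leaving out 1 library gave 330 to 784 differences, and 234 to 573 at 5 CPM in both media. It gave 2530 to 5330 genes changed in 2iL and 1927 to 4044 in serum/LIF, and a log2 minimum of 1 left 2389 and 1684 by construction. The naive count of 13 was 9 to 14 and the glycolysis count of 8 was 6 to 9 with 1 library left out, and the glycolysis count was 5 with the 8 unmodified libraries or the log2 minimum. With the 8 unmodified libraries the naive count was 10. Library totals only moved the median difference of all genes by -0.10, and changes are read relative to it. The share called higher was 32.6% in the main setting, 41.3% with DESeq2 and 22.8% with library totals only. Of 75 named called differences 53 kept their call under every alternative run, 22 lost it under at least 1 and 0 reversed, and of 30 not called 7 gained a call. The labels do not say that replicate numbers pair libraries. Deviations of same-numbered libraries correlated between -0.186 and 0.185, above 0.1 in 3 of 6 pairs of groups, among them JQ1 with DMSO in 2iL (0.118) and in serum/LIF (0.185), so pairing was not established and the replicate block stayed an alternative. Depth limits genes with fewer than about 10 counts in a group, for which sizes are uncertain. With 2 libraries a group, a difference that missed the threshold is not shown to be absent.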
